A study of Saccharomyces cerevisiae with 2 samples.

Results

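The box H/ACA small nucleolar RNAs (snoRNAs) of S. cerevisiae and the genes of their core proteins were followed in total RNA of npl3Δ and wild type cells. The set was defined by name and comprises 33 of the 7127 features of the count table, 29 snoRNAs and the genes CBF5, NHP2, NOP10 and GAR1, and all 33 had a row and an annotated gene. RNA-seq without rRNA depletion was conducted for 1 library of a strain that lacks NPL3 (npl3Δ), which encodes an mRNA-binding guard protein, and 1 library of wild type, both grown at 25 °C, with 200 ng of total RNA for each library. The strains of the study are based on BY4741 or S288C, with auxotrophic markers also in the wild type, but which npl3Δ and wild type strain were sequenced is not given in the sources used here. With 1 library per genotype there is no replicate check, so no test between the genotypes was made and each ratio carries only a counting interval.

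Box H/ACA snoRNAs fold into hairpins joined by a short hinge, the H box, and end shortly after the trinucleotide ACA. A pocket in a hairpin pairs with both sides of a uridine of the target RNA, and the pseudouridine synthase Cbf5 converts that uridine to pseudouridine. Nop10, Nhp2 and Gar1 complete the particle, and Naf1 and Shq1 help to assemble it. Most members guide modification of the 18S or the 25S rRNA, whereas SNR30 guides no known pseudouridine and is required for the cleavages that release the 18S precursor. SNR10 takes part in these cleavages besides its guide function.

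The sequences of the members on which the results turn are shown as DNA letters from the RefSeq annotation of build R64. They are the snoRNAs with the highest and the lowest ratio, the most abundant one (SNR10) and SNR30. The ANA trinucleotide near the 3' end (ACA, or ATA in SNR36) is in capitals. In SNR42 and SNR36 the stretches that pair with the rRNA on either side of the annotated target uridine are in capitals as well. Members of over 300 nt are shown by their 3' part.
SNR42 (chrXI:559016-559205, minus strand, nucleotides 162 to 351): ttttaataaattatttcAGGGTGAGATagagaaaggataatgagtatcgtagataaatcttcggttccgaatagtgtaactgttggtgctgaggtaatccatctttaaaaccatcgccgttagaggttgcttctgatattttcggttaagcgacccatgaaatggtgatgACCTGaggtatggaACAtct
SNR11 (chrXIII:652275-652532, plus strand): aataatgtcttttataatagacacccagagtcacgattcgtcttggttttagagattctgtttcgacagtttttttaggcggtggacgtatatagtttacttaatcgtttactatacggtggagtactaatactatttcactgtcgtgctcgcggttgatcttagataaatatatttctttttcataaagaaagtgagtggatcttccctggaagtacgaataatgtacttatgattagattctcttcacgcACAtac
SNR49 (chrXIV:716120-716284, plus strand): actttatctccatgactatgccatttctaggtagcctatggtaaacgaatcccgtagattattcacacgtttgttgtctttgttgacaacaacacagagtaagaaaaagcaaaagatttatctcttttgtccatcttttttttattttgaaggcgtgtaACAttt
SNR83 (chrXIII:626595-626654, plus strand, nucleotides 247 to 306): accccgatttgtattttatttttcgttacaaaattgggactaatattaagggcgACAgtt
SNR9 (chrXV:407948-408134, minus strand): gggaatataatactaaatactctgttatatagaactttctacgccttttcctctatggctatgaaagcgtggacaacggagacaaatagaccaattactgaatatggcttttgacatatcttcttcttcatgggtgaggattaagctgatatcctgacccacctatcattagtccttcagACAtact
SNR36 (chrXV:680685-680866, minus strand): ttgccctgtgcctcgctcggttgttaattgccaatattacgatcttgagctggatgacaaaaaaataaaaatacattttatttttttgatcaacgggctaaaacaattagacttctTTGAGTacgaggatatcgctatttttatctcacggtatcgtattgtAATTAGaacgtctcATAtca
SNR10 (chrVII:345986-346230, plus strand): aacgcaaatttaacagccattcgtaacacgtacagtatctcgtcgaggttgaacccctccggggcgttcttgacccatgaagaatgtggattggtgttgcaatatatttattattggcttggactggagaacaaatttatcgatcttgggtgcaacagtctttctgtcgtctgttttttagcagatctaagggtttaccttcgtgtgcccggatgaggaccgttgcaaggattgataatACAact
SNR30 (chrXII:199330-199389, plus strand, nucleotides 547 to 606): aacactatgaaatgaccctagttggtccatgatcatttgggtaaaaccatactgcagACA

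ACA stood exactly 3 nt before the annotated 3' end in 14 of the 29 H/ACA snoRNAs (48.3%), and any ANA in 20 (69%), against 3 of 47 box C/D snoRNAs (6.38%) for either. The annotation places 45 target positions of 28 members in the 18S and 25S rRNAs. A search for uninterrupted pairing, G-U pairs included, of at least 3 bases on either side of a target uridine, followed at 13 to 17 nt by ANANNA or by an ANA at the 3' end, found 9 or more pairs at 36 of these 45 positions. SNR42 pairs through 15 bases with the 25S rRNA around position 2975, where the rRNA reads caggtTagttttaccct with the target in capitals. Of the 1358 uridines of the 18S and 25S rRNAs that were searched, 2.36% had as many pairs with SNR42. SNR36 pairs through 12 bases around position 1187 of the 18S rRNA (ttaattTgactcaa), and 7.81% of the uridines had as many. At 17 of the 45 positions fewer than 10% of the uridines matched as well. A match of 9 pairs is weak by this measure. Where the best match had 9 pairs, from 29.1% (SNR161, 18S position 766) to 55.2% (SNR191, 25S position 2260) of the uridines had as many. Of the 45 positions, 44 are a uridine in the reference, so that only these could match.

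The deposited counts sum to 401753674 in npl3Δ and 421789474 in wild type and are mostly rRNA, whose reads enter the table more than once. Features other than rRNA held 6674796 counts in npl3Δ and 4799318 in wild type, of which ATG26 alone held 34.5% in npl3Δ and 23.5% in wild type. Without ATG26 and BDF1, a gene with 50981 counts in npl3Δ and 505 in wild type, 4319945 counts in npl3Δ and 3670150 in wild type remained and served as library size. On this scale the median of the 6118 genes with at least 10 counts in both libraries together had a log2 ratio of npl3Δ to wild type of 0.25, so that values are also given relative to this median gene. NPL3 had 3 counts in npl3Δ and 1345 in wild type. The libraries differed in mating-type genes as well. STE2, the receptor of MATa cells, had 8 counts in npl3Δ and 774 in wild type, and STE3, the receptor of MATα cells, had 1326 counts in npl3Δ and 6 in wild type, so that the deletion cannot be told apart from other differences between these strains. The genes of chromosome I had a median log2 ratio of 1.23, but none of the 33 members lies there, and on the 12 chromosomes that hold a member the medians ran between 0.17 and 0.32. Counts are relative to the other RNAs of a library, so that the amount of an RNA per cell was not measured.

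The 29 H/ACA snoRNAs did not move together. On the scaled data 12 were above and 17 below wild type, with log2 ratios from -1.03 for SNR9 to 2.17 for SNR42 and a median of -0.04. This median lay 0.29 below that of all genes, and 23 of the 29 snoRNAs lay below the median gene. The 47 box C/D snoRNAs, the other large class of guide RNAs, had a median of 0.45, which lies 0.20 above the median gene, with 20 of 47 below it. The 33 C/D snoRNAs with at least 163 counts in both libraries together, the number held by the scarcest member, had a median of 0.22. All 4189 genes with at least that many counts had a median of 0.21, a little closer to the H/ACA median than that of all genes. Both C/D medians exceeded that of the H/ACA class, a difference between 2 libraries that was not tested.

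At least 1.5-fold higher in npl3Δ were 4 of the 29 snoRNAs (13.8%), while 26.5% of the 6118 genes were called by the same fold, or 19.7% of the 4189 genes with at least 163 counts. At least 1.5-fold lower were 6 snoRNAs (20.7%), against 6.77% and 4.97% of these genes. Past a fold of 2 were 3 snoRNAs upwards and 1 downwards, with 12% and 2.7% of all genes. Relative to the median gene, 4 snoRNAs were higher and 9 lower (31%), with 9.21% and 10.9% of the genes with at least 163 counts. The share of lower snoRNAs was thus above that of the genes on either scale. The share of higher ones, with only 4 snoRNAs, was above it only relative to the median gene. Of the 47 box C/D snoRNAs, not all of which reach 163 counts, 40.4% were higher and 8.51% lower on the scaled data. Relative to the median gene these shares were 29.8% and 17%. Shares above those of the genes are thus not particular to the H/ACA class. The number of lower snoRNAs depends on the library size: it was 9 when all features other than rRNA, SCR1 or the median of ratios was used, 2 with the counts as deposited or per 25S rRNA, and 1 per total of the table. The share of all genes past the fold moves with the library size too and was not computed for these choices.

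**Figure D1:**
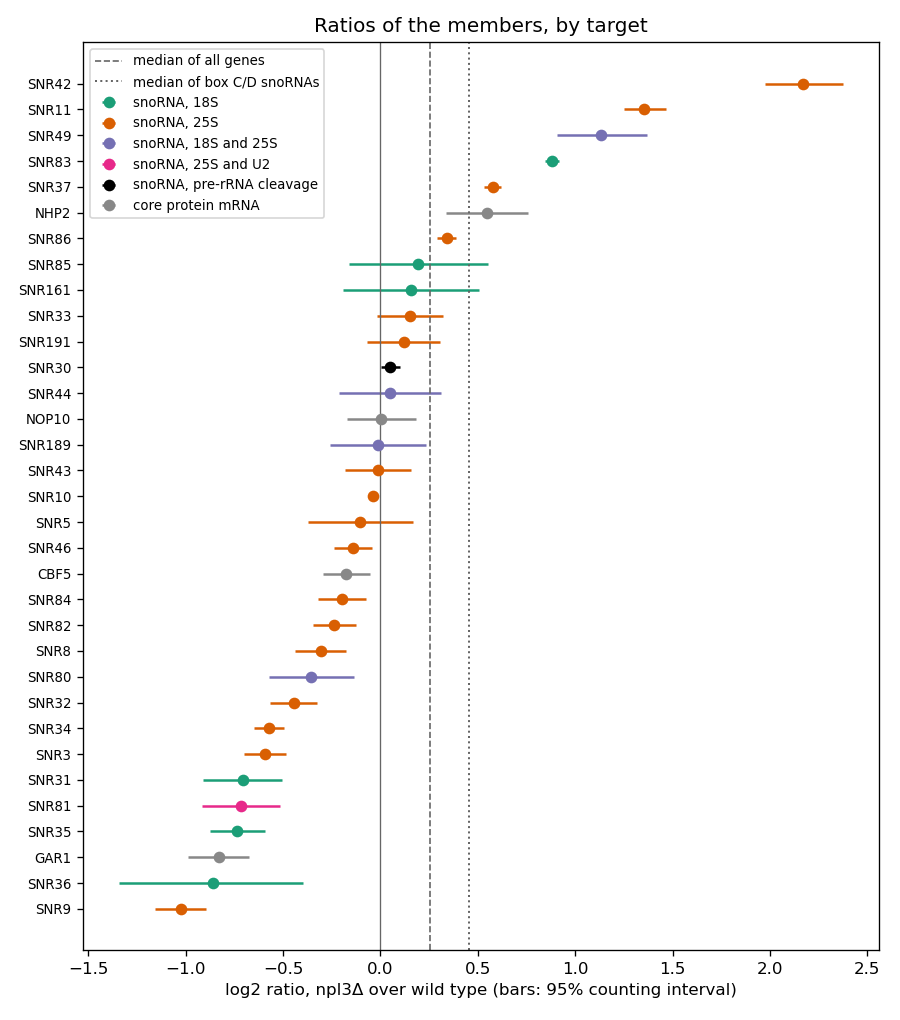
Log2 ratio of npl3Δ to wild type for each of the 33 members, sorted, with the 95% counting interval as bar and the target RNA as colour. The dashed line is the median of all genes (0.25), the dotted line that of the box C/D snoRNAs (0.45), and SNR42, SNR11, SNR49 and SNR83 stand apart on the right with values from 0.88 to 2.17.

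The highest ratio belonged to SNR42, which guides a pseudouridine of the 25S rRNA. It had 1299 counts in npl3Δ and 245 in wild type, 4.51-fold more after scaling (95% interval 3.93 to 5.19). Among the 6118 genes, 144 (2.35%) had a log2 ratio at least as high. The ratios of the next members, SNR11 and SNR49, were reached by 397 (6.49%) and 581 (9.5%) of these genes. SNR11, also a guide for the 25S rRNA, had 2825 counts in npl3Δ and 938 in wild type, a ratio of 2.56 (2.38 to 2.76). SNR49, whose hairpins serve sites in both rRNAs, had 569 counts in npl3Δ and 220 in wild type, a ratio of 2.20 (1.88 to 2.58). These 3 RNAs are encoded on different chromosomes (XI, XIII and XIV) and share no annotated target position. SNR83, a guide for the 18S rRNA and the second most abundant member, had 20700 counts in npl3Δ and 9555 in wild type, a ratio of 1.84 (1.80 to 1.89). The ratio of these 4 snoRNAs was above 1 under every library size tried. This follows from their values, since no library size lowered a log2 ratio by more than 0.27.

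SNR37, a guide for the 25S rRNA that is annotated with a structural role in early pre-60S particles, had 10915 counts in npl3Δ and 6220 in wild type, a ratio of 1.49 (1.45 to 1.54). SNR86, the longest member with 1004 nt, had 8601 counts in npl3Δ and 5772 in wild type, a ratio of 1.27 (1.22 to 1.31). SNR37 thus stayed just under the fold of 1.5, and both guide the 25S rRNA. Relative to the median gene, these 2 and the 4 snoRNAs above it by at least 1.5-fold were the only 6 of 29 that were higher.

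The lowest ratio was that of SNR9, a guide for the 25S rRNA, with 770 counts in npl3Δ and 1332 in wild type, which is 0.491 of wild type after scaling (95% interval 0.449 to 0.537). SNR36 and SNR35, which guide nearby uridines of the 18S rRNA, were lower as well. SNR36 had 64 counts in npl3Δ and 99 in wild type, a ratio of 0.549 (0.395 to 0.760), and it was the scarcest member. SNR35, whose target is further modified by Emg1 and Tsr3, had 695 counts in npl3Δ and 983 in wild type, a ratio of 0.601 (0.544 to 0.663). A further guide for the 18S rRNA, SNR31, was also among the lower ones. It had 340 counts in npl3Δ and 472 in wild type, a ratio of 0.612 (0.531 to 0.705).

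SNR81, which guides a site in the 25S rRNA and pseudouridines of the U2 snRNA of the spliceosome, had 358 counts in npl3Δ and 500 in wild type, a ratio of 0.608 (0.530 to 0.698). SNR3, with several target positions in the 25S rRNA, had 1266 counts in npl3Δ and 1621 in wild type, a ratio of 0.664 (0.616 to 0.715). SNR34, also a guide for the 25S rRNA, fell just short of the fold with 2411 counts in npl3Δ and 3043 in wild type, a ratio of 0.673 (0.638 to 0.710). The lower snoRNAs thus serve both rRNAs and the U2 snRNA. SNR32 had 1040 counts in npl3Δ and 1203 in wild type, a ratio of 0.735 (0.675 to 0.799), and SNR80 had 336 counts in npl3Δ and 365 in wild type, a ratio of 0.782 (0.672 to 0.910). SNR9, SNR36, SNR35, SNR81, SNR31 and SNR3 were below wild type under each library size tried. This follows from their values, since no library size raised a log2 ratio by more than 0.31. SNR9 was the only one of these snoRNAs at least 1.5-fold lower under all library sizes.

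Both snoRNAs with a role in pre-rRNA cleavage were close to wild type on this scale. SNR30, which is essential, had 7740 counts in npl3Δ and 6346 in wild type, a ratio of 1.04 (1.00 to 1.07). SNR10 had 60142 counts in npl3Δ and 52465 in wild type, a ratio of 0.974 (0.962 to 0.985). Their log2 ratios of 0.05 and -0.04 were thus both below the median gene. Over the library sizes tried, the log2 ratio ran from -0.21 to 0.36 for SNR30 and from -0.30 to 0.27 for SNR10, so that the direction of both turns. The value of SNR10 is shared with YGL088W, a reading frame on the same strand that overlaps it and had 60136 counts in npl3Δ and 52452 in wild type, so that the same reads appear under both names.

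The other 12 snoRNAs differed little between the libraries, with ratios from 0.808 for SNR8 to 1.14 for SNR85. SNR8 had 947 counts in npl3Δ and 996 in wild type, SNR82 had 1356 in npl3Δ and 1358 in wild type, and SNR84 had 1080 in npl3Δ and 1052 in wild type. For these 3 guides of the 25S rRNA, as for SNR46, the counting interval stayed below 1 on this scale. Per 25S rRNA the log2 ratios of SNR82, SNR84 and SNR46 were 0.04, 0.08 and 0.13, so that their direction turns with the library size. SNR46 had 1748 counts in npl3Δ and 1639 in wild type, a ratio of 0.906 (0.847 to 0.970). For the remaining 8 the interval held 1 on this scale. Relative to the median gene the interval lay below 1 for 7 of these 12 snoRNAs and held 1 for 5, whereas with the counts as deposited it lay above 1 for 6 and held 1 for 6. Of all 29 snoRNAs, 13 changed sign between the 7 library sizes. Among them SNR5 had 241 counts in npl3Δ and 220 in wild type, SNR43 had 614 in npl3Δ and 526 in wild type, and SNR33 had 648 in npl3Δ and 496 in wild type. The guides SNR189 and SNR44, which serve both rRNAs, had 299 and 274 counts in npl3Δ and 256 and 225 in wild type. The 18S guides SNR161 and SNR85 had 160 and 156 counts in npl3Δ and 122 and 116 in wild type.

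Grouped by target, the 6 guides for the 18S rRNA alone had log2 ratios from -0.86 to 0.88 with a median of -0.28, and 3 of them were at least 1.5-fold lower and 1 higher. The 17 guides for the 25S rRNA alone ranged from -1.03 to 2.17 with a median of -0.10, with 2 lower and 2 higher. The 4 guides for both had a median of 0.02. The shares lower and higher were 50% and 16.7% for the 18S guides and 11.8% and 11.8% for the 25S guides. Of all genes, 6.77% were lower and 26.5% higher by this fold. The ranges of the 3 groups overlapped, so that no order of the groups can be read from these libraries. Summed, the H/ACA snoRNAs had 128132 counts in npl3Δ and 98806 in wild type. They made up 2.97% of the library size in npl3Δ (exact binomial 95% interval 2.95% to 2.98%) and 2.69% of that in wild type (2.68% to 2.71%). SNR10 made up 46.9% of this sum in npl3Δ and 53.1% in wild type. Without SNR10 the sum was 67990 in npl3Δ and 46341 in wild type, a ratio of 1.25 (1.23 to 1.26). SNR10, SNR83, SNR37 and SNR86 together held 78.3% of the whole sum in npl3Δ and 74.9% in wild type. Both sums thus mostly follow these few abundant RNAs and do not describe the class, in which 17 of the 29 snoRNAs were below wild type. The direction of the whole sum depends on the library size. Its ratio was 1.10 here, 1.30 with the counts as deposited, 1.33 per 25S rRNA and 1.36 per total of the table, but 0.932 with all features other than rRNA, 0.937 with the median of ratios, 0.919 per SCR1 and 0.924 relative to the median gene. The sum without SNR10 had ratios from 1.04 to 1.54 over the same choices.

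Per length, the members spanned a wide range of levels. In counts per kilobase and per 1000000 counts of the library size, SNR10 had a level of 56824 in npl3Δ and 58347 in wild type, and SNR83 followed with 15659 in npl3Δ and 8508 in wild type. SNR37 came next with 6546 in npl3Δ and 4391 in wild type, while SNR36 had the lowest level of all with 81.4 in npl3Δ and 148 in wild type. SNR30 had 2957 in npl3Δ and 2853 in wild type. SNR34 had a higher level than SNR30 in wild type (4084) and a lower one in npl3Δ (2749), one of the changes of order among the abundant members. How well an RNA of this size is captured by the library preparation was not tested, so that levels compare RNAs of different length only roughly.

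**Figure D2:**
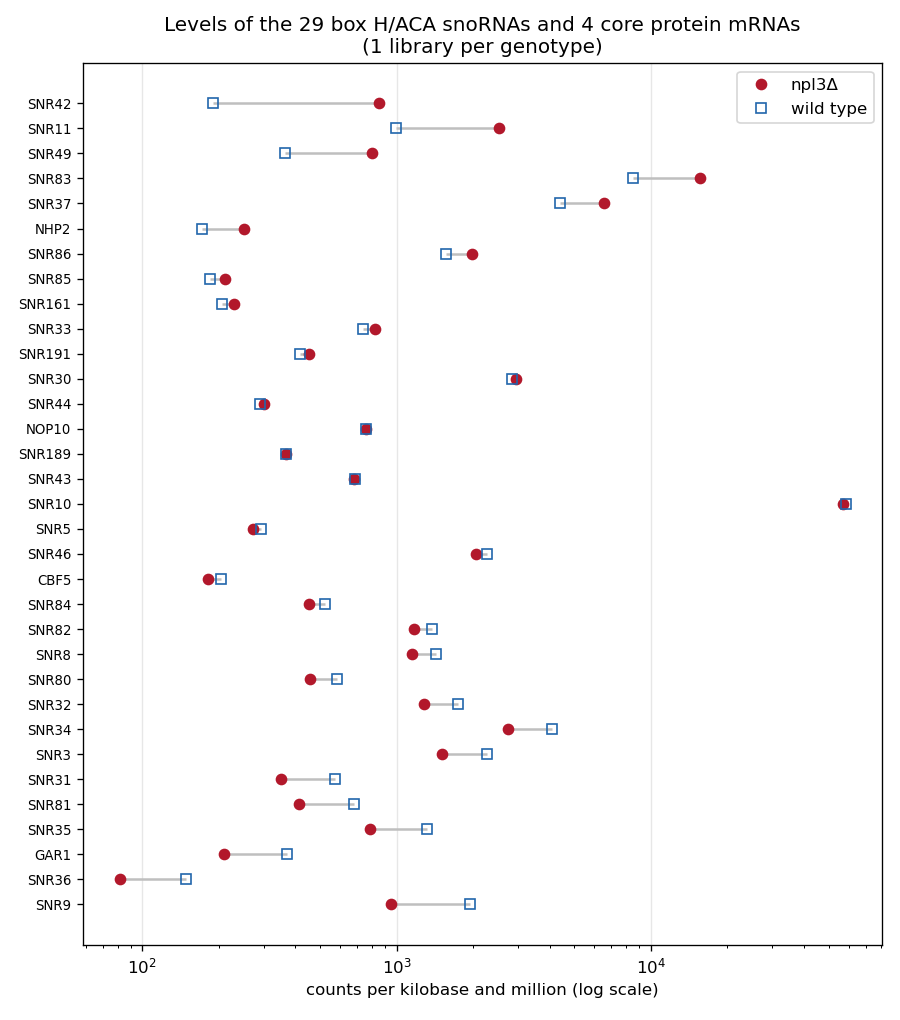
Level of each member in npl3Δ (filled circles) and wild type (open squares) in counts per kilobase and per 1000000 counts on a log scale, sorted by the ratio. SNR10 stands at 56824 in npl3Δ and 58347 in wild type, far to the right of all others, and the largest gap between the genotypes is that of SNR42.

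The H/ACA snoRNAs are 161 to 1004 nt long. When they were divided at 250 nt, a boundary chosen after the values were seen, none of the 9 longer ones was 1.5-fold lower and 3 were higher, with a median of 0.34. Of the 20 shorter ones 6 were lower and only SNR49 was higher, with a median of -0.23. Of all genes, 26.5% were higher and 6.77% lower by this fold, and the counts of the split are a description only. The relation was not tight: SNR84 with 550 nt and SNR82 with 268 nt had ratios below 1, and Spearman's rho between length and log2 ratio over the 29 snoRNAs was 0.29. It was -0.20 over the 47 box C/D snoRNAs and -0.03 over 5667 protein-coding genes. The corresponding rho of the log2 ratio was -0.24 with GC content and -0.13 with the level per length in wild type, all as descriptions of RNAs that share both libraries.

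**Figure D3:**
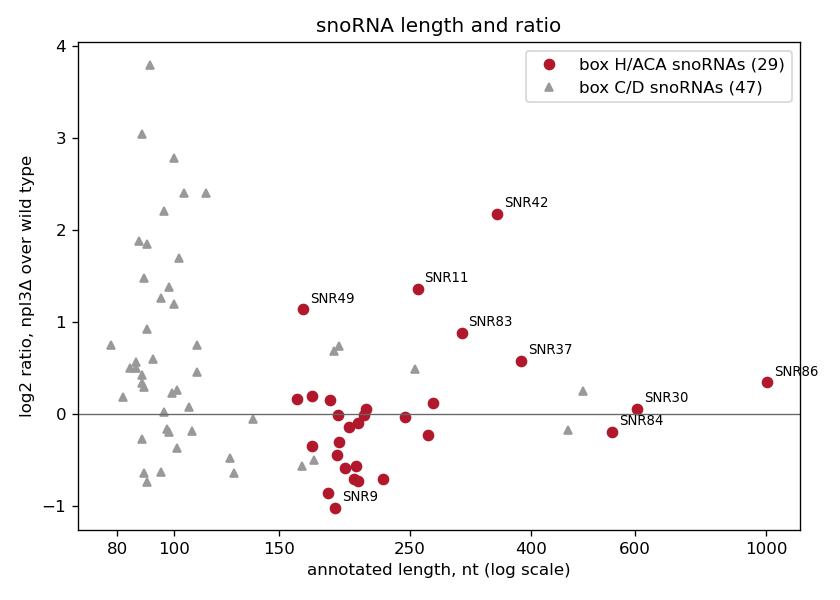
Log2 ratio of npl3Δ to wild type against annotated length on a log scale for 29 box H/ACA snoRNAs (circles) and 47 box C/D snoRNAs (triangles). SNR42, SNR11, SNR83 and SNR37 lie above 0.5 at 258 nt or more, SNR49 is the one short H/ACA snoRNA above it, and C/D snoRNAs reach 3.80.

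The mRNAs of the core proteins moved apart. GAR1 (YHR089C), which encodes the subunit involved in substrate turnover, had 558 counts in npl3Δ and 844 in wild type, a ratio of 0.562 (95% interval 0.504 to 0.626). Of all genes, 226 (3.69%) had a ratio at least as low. NHP2 (YDL208W), which encodes an RNA-binding subunit, had 509 counts in npl3Δ and 296 in wild type, a ratio of 1.46 (1.26 to 1.69). The other 2 were close to wild type. CBF5 (YLR175W), the pseudouridine synthase, had 1133 counts in npl3Δ and 1087 in wild type, a ratio of 0.886 (0.814 to 0.963), and NOP10 (YHR072W-A), a small subunit that binds Cbf5, had 580 counts in npl3Δ and 491 in wild type, a ratio of 1.00 (0.888 to 1.13). The sign of the log2 ratio of CBF5 and NOP10 turned between the 7 library sizes. Of the 4 genes only GAR1 passed the fold of 1.5, while 6.77% of all genes were lower by that fold. Of the 4 genes 3 lay below the median gene, GAR1 alone by at least 1.5-fold.

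For the factors that assemble H/ACA particles or form the 3' ends of snoRNAs, 15 genes were listed. Of these, 3 were at least 1.5-fold higher and none lower, with a median log2 ratio of 0.38, beside 0.25 for all genes. The share of higher ones (20%) was under the 26.5% of all genes. The highest was TAH1, a cofactor of Hsp90 in snoRNP assembly, with 117 counts in npl3Δ and 53 in wild type, a ratio of 1.88 (1.35 to 2.65). SEN1, the helicase that ends transcription of snoRNA genes together with Nrd1 and Nab3, had 1309 counts in npl3Δ and 648 in wild type, a ratio of 1.72 (1.56 to 1.89). PAP2, the TRAMP poly(A) polymerase also called Trf4, had 302 counts in npl3Δ and 151 in wild type, a ratio of 1.70 (1.39 to 2.08). The lowest was RRP6, the nuclear exosome nuclease that trims snoRNA 3' ends, with 416 counts in npl3Δ and 412 in wild type, a ratio of 0.858 (0.747 to 0.985). The assembly factors NAF1 and SHQ1 had ratios of 1.04 (0.877 to 1.23) and 1.31 (1.00 to 1.70).

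Among the 5 proteins known to work with SNR30, only KRI1 passed the fold, with 672 counts in npl3Δ and 370 in wild type, a ratio of 1.54 (1.36 to 1.76), and the lowest was HAS1 with 0.981 (0.875 to 1.10). EMG1 and TSR3, which act on the target of SNR35, had ratios of 1.19 (0.959 to 1.48) and 1.27 (1.04 to 1.55), whereas SNR35 itself was lower. Of the 9 pseudouridine synthases that need no guide RNA, 1 was at least 1.5-fold lower. This was PUS5, which modifies mitochondrial rRNA, with 396 counts in npl3Δ and 636 in wild type, a ratio of 0.529 (0.465 to 0.601). The highest of them was RIB2 with a ratio of 1.42 (1.11 to 1.82). Of all genes, 26.5% were at least 1.5-fold higher and 6.77% lower. The 1 gene past the fold in each of the lists of 5 and 9 is therefore not read as a result about these lists.

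**Figure D4:**
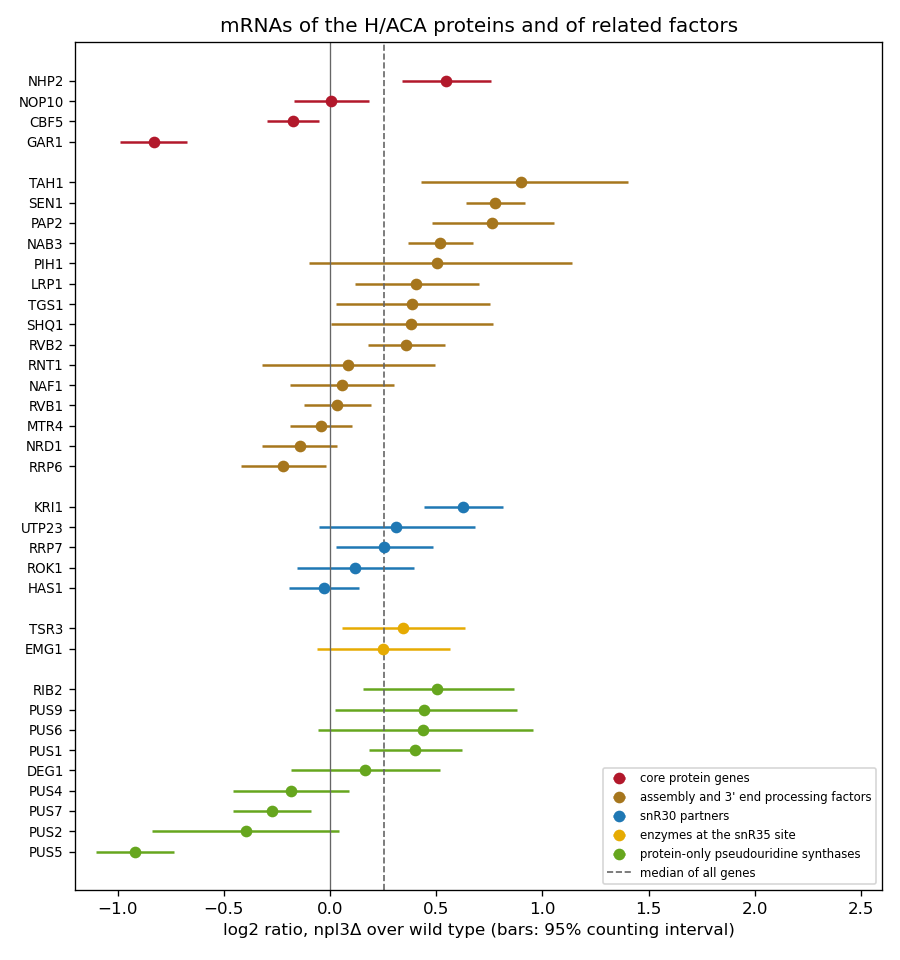
Log2 ratio of npl3Δ to wild type, with the 95% counting interval as bar, for the mRNAs of the 4 core proteins, 15 assembly and 3' end processing factors, 5 partners of SNR30, 2 enzymes at the SNR35 site and 9 protein-only pseudouridine synthases. GAR1 (-0.83) and PUS5 (-0.92) lie farthest to the left and TAH1 (0.90) farthest to the right, and the dashed line is the median of all genes (0.25).

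Most H/ACA snoRNAs have their own promoter, but SNR44 lies in the intron of RPS22B and SNR191 in that of NOG2. SNR191 had 538 counts in npl3Δ and 421 in wild type, and NOG2, which encodes a GTPase of 60S maturation, had 674 counts in npl3Δ and 784 in wild type. Their log2 ratios were 0.12 and -0.45. SNR44 and RPS22B, a gene of a small subunit protein, had log2 ratios of 0.05 and -0.40. RPS22B had 383 counts in npl3Δ and 428 in wild type. In both pairs the host gene had the lower ratio, and whether reads of the unspliced host count for both was not tested.

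For 14 of the snoRNAs another gene begins on the same strand within 1000 nt downstream. Their median log2 ratio was 0.23, beside 0.25 for all genes, and 2 of the 14 were at least 1.5-fold higher and none lower, with 26.5% of all genes higher by that fold. USE1 (YGL098W, chrVII:317342-318079), which encodes a SNARE protein, begins 287 nt after SNR82 and had 345 counts in npl3Δ and 64 in wild type, a ratio of 4.58 (95% interval 3.50 to 6.08), with 2.32% of all genes at least as high. MAD1 (YGL086W, chrVII:347119-349368), a gene of the spindle checkpoint, begins 889 nt after SNR10. It had 454 counts in npl3Δ and 157 in wild type, a ratio of 2.46 (2.05 to 2.97), with 7.32% of all genes at least as high. SNR82 and SNR10 themselves had ratios of 0.848 and 0.974. The remaining 12 downstream genes had log2 ratios from -0.29 for RPS14A to 0.54 for CTO1. Whether transcripts of the snoRNA genes extend into USE1 or MAD1 was not tested, since the counts do not show where in a gene the reads lie.

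The direction of the class depends on the quantity the counts are related to. Divided by the counts of the 25S rRNA, which most members modify, the median log2 ratio of the 29 snoRNAs was 0.23, with 19 of them above and 10 below wild type. Divided by SCR1, the RNA of the signal recognition particle and the loading control of the study's northern blots, it was -0.30, with 6 above and 23 below. A change of library size adds the same amount to every log2 ratio, so that the order of the RNAs and of the medians is the same under all 7 by construction.

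**Figure D5:**
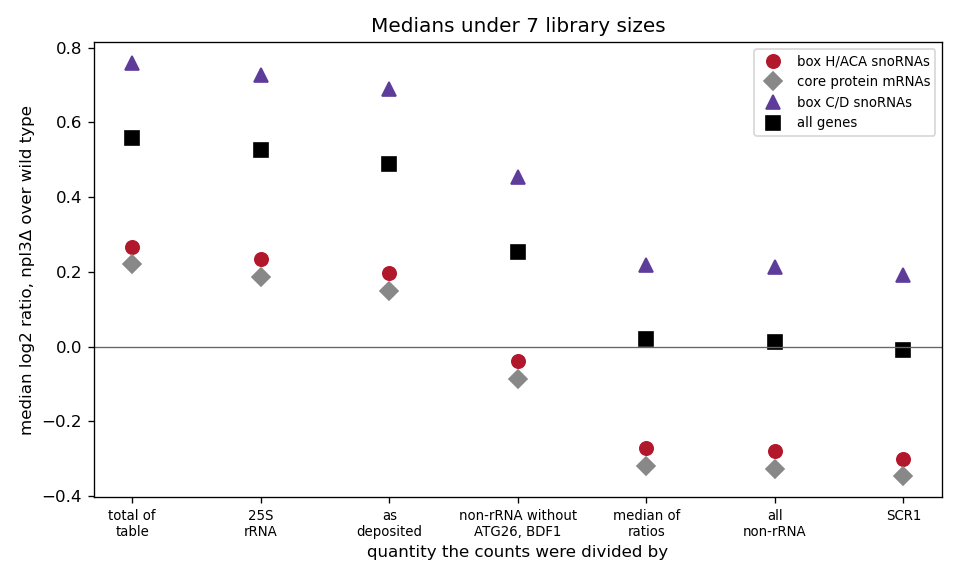
Median log2 ratio of npl3Δ to wild type for the box H/ACA snoRNAs (circles), the core protein mRNAs (diamonds), the box C/D snoRNAs (triangles) and all genes with at least 10 counts (squares) under 7 library sizes. The H/ACA median runs between -0.30 (SCR1) and 0.27 (total of the table), and the distances between the symbols are fixed, since each library size shifts all of them alike.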

How the data were processed

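Total RNA of 1 npl3Δ and 1 wild type library was sequenced without rRNA depletion. Alignment by the authors was done with HISAT2 against sacCer3 (R64), and raw counts per feature from featureCounts were deposited. Versions, the annotation and the treatment of reads with several positions are not given in the sources used here. Overlapping features on 1 strand were both counted, as SNR10 and YGL088W show. The deposited coverage of the 35S rRNA was not used.

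Counts were divided by the library size given above, and log2 ratios were formed with a pseudocount of 0.5 over features with at least 10 counts in both libraries together. Intervals are 95% exact conditional binomial (Clopper-Pearson) and describe counting error alone, because the reads carry no molecular identifiers and need not be independent. The calculation was run on simulated independent counts, which is what the intervals assume. That run checks the code only and cannot show how well the intervals hold for these libraries. The members and lists were chosen with earlier results of these data known. The text names all members, the genes of the lists of processing factors, SNR30 partners, enzymes at the SNR35 site and pseudouridine synthases that passed 1.5-fold or were highest or lowest, host genes, downstream genes past 1.5-fold and a few library controls. RPS14A, CTO1, NAF1, SHQ1, EMG1, TSR3 and the sequences shown were added after their values were seen. Positions and sequences come from RefSeq (R64), in which 6169 of the 7127 features were found by name. Alternatives were other library sizes, pseudocounts and minimum counts. Calculations used scipy 1.17.1, numpy 2.4.6 and pandas 2.3.3 under Python 3.11.15, with figures from matplotlib 3.10.9.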

Additional observations from a re-analysis of the deposited data

How the results depend on the processing

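The library size moved the medians of the H/ACA snoRNAs and of the core protein genes beyond the median of their members' interval bounds, but not that of the box C/D snoRNAs, whose bounds are wide. The pseudocount (1 or 0) and the minimum count (50 or none) moved none of the 3 beyond them. The median log2 ratio of the H/ACA snoRNAs was -0.28 with all features other than rRNA, 0.20 with the counts as deposited, 0.27 with the total of the count table, -0.27 with the median of ratios, -0.30 with SCR1 and 0.23 with the 25S rRNA. In the same order, that of the core protein genes was -0.33, 0.15, 0.22, -0.32, -0.35 and 0.19, and that of the box C/D snoRNAs was 0.21, 0.69, 0.76, 0.22, 0.19 and 0.73. Without the 3 snoRNAs that overlap another feature, the H/ACA median was -0.12. The number of snoRNAs at least 1.5-fold lower was 6, and it was 2 with the counts as deposited or the 25S rRNA, 1 with the total of the count table and 9 with the other library sizes, while the number at least 1.5-fold higher was 4 to 6. The share of all genes past the fold under these other library sizes was not computed, so that these numbers have no background beside them. All 11 members past the fold kept their direction under the 10 settings. This was fixed in advance and is no check. The library sizes shifted every log2 ratio by -0.26 to 0.31, less than the fold of 1.5, and the other settings hardly moved them.

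With 1 library per genotype, the spread between cultures is unknown, and differences of the size seen for most members could not be told from it. Depth limits the precision for SNR36, SNR85 and SNR161, which had 163 to 282 counts in both libraries together.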

Other observations

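Downstream of 17 H/ACA snoRNAs, within 1000 nt, lies a gene with at least 10 counts on the opposite strand, whose transcript runs towards the snoRNA. The median log2 ratio of these genes was 0.11, beside 0.25 for all genes, with 3 at least 1.5-fold higher (17.6%) and 2 lower (11.8%), against 26.5% and 6.77% of all genes. The highest was GLO4, next to SNR9, with 58 counts in npl3Δ and 27 in wild type, and the lowest was POP6, next to SNR46, with 37 counts in npl3Δ and 55 in wild type. BRE5 next to SNR49 and SSO2 next to SNR83 were higher, as were these snoRNAs, and SER1 next to SNR36 was lower, as was SNR36. Their log2 ratios were 0.85, 0.65 and -0.69. In contrast, GLO4 (0.85) lies next to SNR9, the lowest snoRNA (-1.03), and CAF20 (0.45) next to SNR31 (-0.71). The genes opposite SNR42 and SNR37 (KTR2 and PAM16) had log2 ratios of 0.25 and 0.22. These genes were named after their values were seen, and no relation between neighbours was tested.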
